A study of Mus musculus with 6 samples.

Results

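The immunoproteasome and the machinery that loads peptides onto MHC class I molecules were examined in mouse mesenchymal stem cells exposed to terahertz radiation. The set was a list of 10 genes, and its members were all probe sets whose annotated symbol was exactly one of them. Of the 10 genes 9 were found, by 15 of the 45037 probe sets tested, and they were 9 of 18193 genes with a symbol of their own. Psme2 shared its 1 probe set with a second gene and is not analysed here. The genes were chosen by function, with their differences between irradiated and control arrays already known, so those differences count as used in the choice and are given as a description, not as a test.

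The cells were a commercial preparation of this stromal cell type, which can become fat, bone or cartilage. Both groups were kept in medium with 5% serum to which rosiglitazone (Roziglitazone in the labels) at 1 µM, insulin at 5 µg/ml, IBMX at 100 µM and dexamethasone at 1 µM, a mixture that drives fat cell formation, was added again 48 h before the exposure. The irradiated group was exposed for 12 h to broadband terahertz pulses, centred near 10 THz, of 35 fs and about 1 µJ, with 1 kHz repetition and an average of 1 mW/cm2. The control group was not irradiated and stood beside it, at the same 26 to 27 °C. The 3 independent experiments contributed 1 array per group, 6 arrays in all, and RNA was taken at the end of the exposure. The sources used here give no strain, sex or passage, and dexamethasone, which both groups received, is itself an anti-inflammatory agent.

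Proteasomes cut proteins into peptides with 3 catalytic subunits, Psmb5, Psmb6 and Psmb7. Interferon-gamma and some immune cells replace these with Psmb8, Psmb9 and Psmb10, which gives the immunoproteasome, and Psme1 and Psme2 form a cap that opens it. Tap1 and Tap2 pair to pump the peptides into the endoplasmic reticulum, where tapasin (Tapbp) holds the empty class I heavy chain with beta-2-microglobulin (B2m) until a peptide binds. Nlrc5 is a transactivator of class I genes.

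Psmb9 and Tap1 are neighbours transcribed away from each other, and in the RefSeq promoter table for build GRCm38.p6 their starts lie 226 bases apart. The 300-base promoter windows of the pair share 275 bases. The stretch between the starts is shown because these were the members that read highest in irradiated cells against their controls, and the B2m promoter beside it because B2m is the subunit common to class I molecules and its level barely moved. The capitals mark matches, on either strand, to 7 motifs. These were the interferon element GAAANNGAAA, the gamma-activated site TTCNNNGAA, the NF-kB consensus, the Y box ATTGG, the X2 core TGACG, the GC box GGGCGG and the TATA box TATAAA. The Psmb9-Tap1 stretch runs from the start of Psmb9 on the left to that of Tap1 on the right (chr17:34187331-34187555, plus strand), and the B2m stretch ends at the base before its start (chr2:122147527-122147686, plus strand).
Psmb9-Tap1: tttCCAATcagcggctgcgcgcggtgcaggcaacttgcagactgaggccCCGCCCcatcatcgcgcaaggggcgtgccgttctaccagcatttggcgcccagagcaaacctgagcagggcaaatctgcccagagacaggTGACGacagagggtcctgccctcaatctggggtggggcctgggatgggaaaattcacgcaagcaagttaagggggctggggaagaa
B2m: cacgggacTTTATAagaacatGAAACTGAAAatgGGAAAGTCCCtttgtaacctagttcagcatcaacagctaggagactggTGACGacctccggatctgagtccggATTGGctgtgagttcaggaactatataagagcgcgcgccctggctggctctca

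The stretch between Psmb9 and Tap1 held 1 Y box, 1 GC box and 1 X2 core. The B2m stretch held an interferon element, a match to the NF-kB consensus that begins 126 bases before the start, an X2 core and a Y box, and the TATA letters on the opposite strand, 152 bases before the start. The printed stretches, of 225 and 160 bases, are shorter than the 300-base promoter windows, so shares over windows are not shares for such stretches. Over 32851 windows of 300 bases, 3.44% held the interferon element, 8.3% the gamma-activated site and 8.46% the NF-kB consensus. The Y box was in 37.4%, the X2 core in 20.8%, the GC box in 35.7% and the TATA box in 13.6%. Among the other windows of the set, Psme1 held the interferon element and Psmb8 the gamma-activated site. Tap2 and Nlrc5 had no window in the table. A match describes letters and does not show that a factor binds there. Only exact matches to these patterns were counted, so a missing match does not show that a site is absent.

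Psmb9 and Tap1 read higher in irradiated cells in all 3 experiments, by about 1.5-fold, while the other 7 genes differed by 0.13 or less on the log2 scale and in both directions. Levels are the deposited log2 values of a probe set, and a gene is represented by its brightest one. Differences are irradiated minus control, with the SE and 95% interval of a limma fit that keeps each experiment's own control. Psmb9 read 6.74, 6.80 and 6.55 in the controls of experiments 1, 2 and 3 and 7.28, 7.34 and 7.12 in the irradiated cultures. Each irradiated array lay above all 3 controls, and the 3 differences of 0.54, 0.54 and 0.57 were close to each other. Their mean was 0.55 ± 0.09 (SE, n = 3), or 1.46-fold, with an interval of 0.33 to 0.77.

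Tap1 read 5.92, 5.55 and 5.70 in controls and 6.60, 6.03 and 6.29 in irradiated cultures. The groups again did not overlap, but the lowest irradiated array was only just above the highest control. The differences were 0.68, 0.48 and 0.59, with a mean of 0.58 ± 0.10 (SE, n = 3), or 1.50-fold, and an interval of 0.35 to 0.82. Its control mean of 5.72 lay under the level of 6 used here to call a gene expressed, so it counted as expressed through the irradiated group alone. Tap1 has 3 further probe sets, all dimmer. The next brightest went the other way in every experiment, from 4.60, 4.54 and 4.60 in controls to 4.41, 4.40 and 4.44 in irradiated cultures, a difference of -0.16 ± 0.09 (SE). The last 2 had control means of 2.77 and 2.37 and differences of -0.08 and 0.03. When all 4 probe sets of Tap1 were averaged its difference was 0.09, so its value rests on the brightest one.

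**Figure D1:**
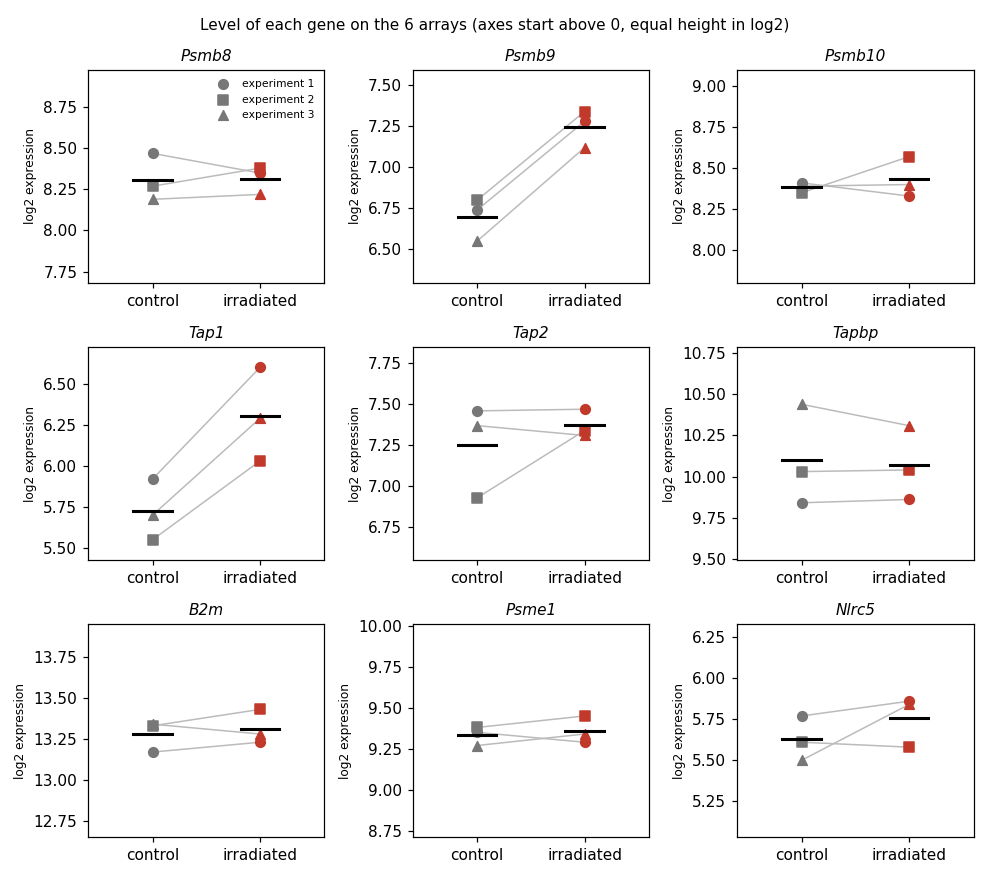
Level of the 9 measured genes on the 6 arrays, as log2 expression of the brightest probe set, with grey lines joining the control and irradiated culture of an experiment and black bars at the group means; each axis spans the same height and does not start at 0. Only in Psmb9 and Tap1 do the irradiated arrays all lie above the controls.

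The other subunits that are exchanged into the immunoproteasome read close to their controls. Psmb8, the chymotrypsin-like subunit, read 8.47, 8.27 and 8.19 in controls and 8.35, 8.38 and 8.22 in irradiated cultures. The groups overlapped, with a mean difference of 0.01 (95% interval -0.23 to 0.25). The second Psmb8 probe set read only 3.49 in controls and gave a difference of -0.08. Psmb10, the trypsin-like subunit, read 8.41, 8.35 and 8.39 in controls and 8.33, 8.57 and 8.40 in irradiated cultures. The controls lay within 0.06 of each other while 1 irradiated array lay below, 1 within and 1 above their range, with a mean difference of 0.05 (95% interval -0.20 to 0.30). Psme1, the alpha subunit of the cap, read 9.35, 9.38 and 9.27 in controls and 9.29, 9.45 and 9.34 in irradiated cultures. Its groups overlapped as well, and the difference was 0.03 (95% interval -0.20 to 0.26).

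The standard catalytic subunits, which the inducible ones replace, gave the reference for these values. Psmb6, replaced by Psmb9, read 11.58, 11.64 and 11.47 in controls and 11.50, 11.47 and 11.49 in irradiated cultures, a difference of -0.08 ± 0.10 (SE). The difference of Psmb9 exceeded that of Psmb6 by 0.62, 0.71 and 0.55, with a mean of 0.63 ± 0.08 (SD, n = 3). The same quantity was -0.08, 0.14 and 0.11 for Psmb8 against Psmb5, with a mean of 0.06 ± 0.12 (SD, n = 3). It was -0.09, 0.29 and 0.01 for Psmb10 against Psmb7, with a mean of 0.07 ± 0.20 (SD, n = 3). Of the 3 inducible subunits, Psmb9 was the one for which this quantity had the same sign in every experiment. It is mostly the difference of Psmb9 itself, which was known when the list was made, so nothing is read from it.

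Tap2, the partner of Tap1 in the transporter, read 7.46, 6.93 and 7.37 in controls and 7.47, 7.34 and 7.31 in irradiated cultures. The control of experiment 2 was low and the other arrays overlapped. The differences were 0.01, 0.41 and -0.06, a mean of 0.12 (95% interval -0.18 to 0.42), which was -0.03 without experiment 2. The difference of Tap1 exceeded that of Tap2 by 0.67, 0.07 and 0.65, a mean of 0.46 ± 0.34 (SD, n = 3), so in experiment 2 both parts of the transporter read higher by a similar amount.

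Tapbp read 9.84, 10.03 and 10.44 in controls and 9.86, 10.04 and 10.31 in irradiated cultures. Here the experiments differed more than the groups did, with controls spread over 0.60 and a mean difference of -0.03 (95% interval -0.27 to 0.20). Its second probe set gave 0.02, 0.08 and -0.35. B2m read 13.17, 13.33 and 13.34 in controls and 13.23, 13.43 and 13.28 in irradiated cultures, near the top of the scale, where a small difference could be hidden. The difference was 0.03 (95% interval -0.20 to 0.27), and 0.03 on its second probe set. Nlrc5 was dim, at 5.77, 5.61 and 5.50 in controls and 5.86, 5.58 and 5.84 in irradiated cultures. Its groups overlapped and its difference was 0.13 (95% interval -0.13 to 0.40), of which experiment 3 gave 0.34, and without that experiment it was 0.03.

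**Figure D2:**
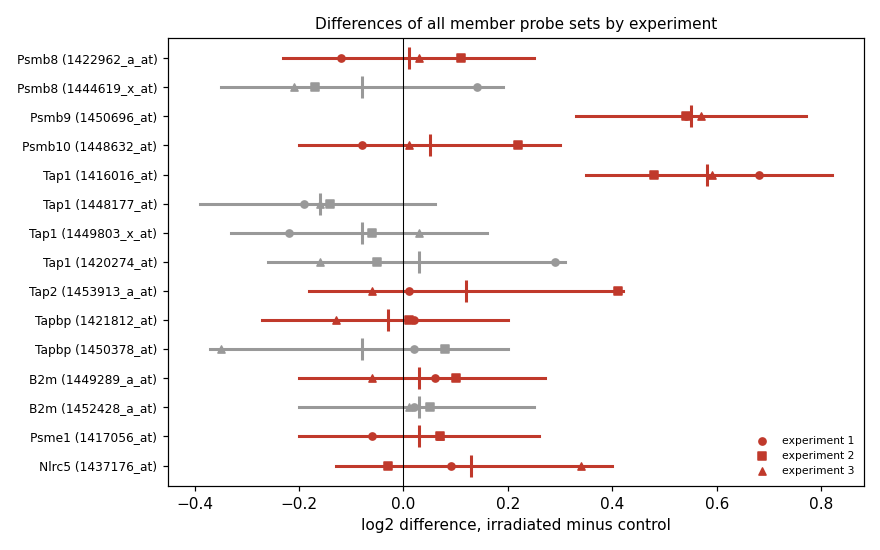
Log2 difference, irradiated minus control, of the 15 probe sets of the set; symbols are the 3 experiments, the upright mark is the mean and the line its 95% interval from the limma fit, with the brightest probe set of a gene in red and the others in grey. The intervals of Psmb9 and of the brightest Tap1 probe set lie above 0, and the second Tap1 probe set lies below 0 in every experiment.

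After Benjamini-Hochberg adjustment limma called 0 of the 45037 probe sets, or 0.0% (smallest adjusted p = 0.188), and none of the 9 genes did among the 18193 genes, of which 0.0% were called. An unadjusted p under 0.05 was reached by 2 of the 9 genes, Psmb9 and Tap1, against a background of 8.31% of all genes. The irradiated arrays lay wholly above the controls for the same 2 genes, against 4.56% of all genes, and for none wholly below, against 5.4%. Differences above 0 in all 3 experiments were found for those 2 genes, against 15.7%, and differences below 0 in all 3 for none, against 15.1%. Since these differences were known when the list was made, nothing is read from those counts. Over the 9 genes the median difference was 0.05, with 0.02, 0.11 and 0.03 in the 3 experiments, beside 0.007 over all genes. Of the 9, 8 had a mean above 0 and 1 below, where 52.0% of all genes had a mean above 0.

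**Figure D3:**
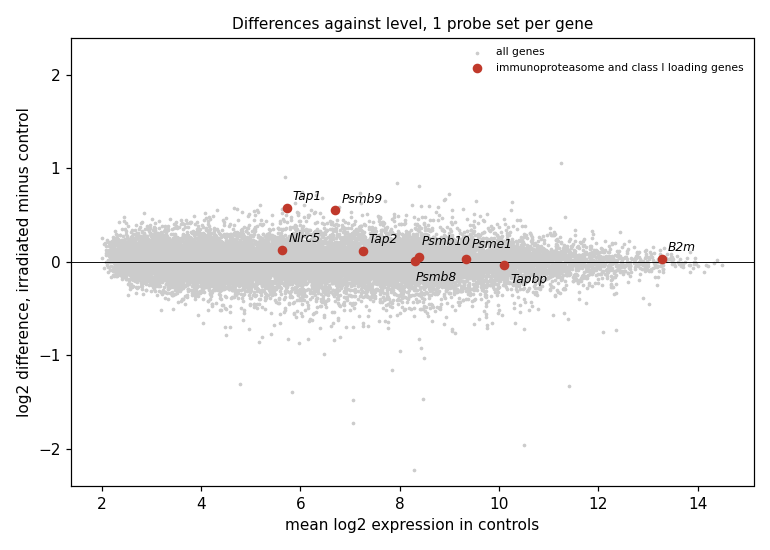
Log2 difference, irradiated minus control, of every gene against its mean log2 expression in controls, 1 probe set per gene; red points are the 9 measured genes of the set. Psmb9 and Tap1 lie at the upper edge of the cloud and the other 7 near 0.

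Of the genes around the shared promoter, Psmb8 and Tap2 come next on the side of Tap1, in the RefSeq gene order. The 6 protein-coding genes beyond Tap2 and the 6 beyond Psmb9, chosen after the values were seen, include MHC class II genes and the bromodomain gene Brd2. Of these 12 genes 11 were measured and 2 were expressed, Brd2 at a difference of -0.18 ± 0.09 (SE) and H2-DMa, which edits class II peptides, at -0.12 ± 0.10 (SE). The 11 differences ran from -0.18 to 0.08, and none was higher in all 3 experiments. Most of these 11 genes were too dim to judge. Psmb9 and Tap1 were picked for their differences, and that of Tap1 rests on its brightest probe set. A role of the shared promoter was not tested.

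Gene pairs with starts as close and as divergent as those of Psmb9 and Tap1 numbered 1128 in the promoter table, and both genes were measured in 582. In 11 of the 582 both genes were higher in all 3 experiments, and in 19 both were lower. Irradiated arrays lay above all controls for both genes in 2 pairs, or 0.344%, of which Psmb9 and Tap1 were 1. The pair was picked for these differences, so nothing is read from the count.

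Genes that share the pathway with the set are given by lists, with limma p adjusted over all probe sets. Over all genes, dim ones included, 8.31% had an unadjusted limma p under 0.05. In the lists it was found for 1 gene of the 19S cap, Psmd5. It was found for 2 in the upstream list, Jak2 and Nfya, and for 0 in the other 6 lists. None of these 3 genes kept an unadjusted p under 0.05 without the replicate block. All 3 standard catalytic subunits read lower by at most 0.08, and none passed. Among the other 11 subunits of the 20S core 10 read higher and 1 lower, with none past adjustment and a median of 0.053. The leading ones were Psmb3 at 0.13 ± 0.10 (SE), Psma4 at 0.11 ± 0.10 (SE), Psma2 at 0.10 ± 0.10 (SE) and Psma6 at 0.08 ± 0.09 (SE), and each had an interval that spans 0. Of the 18 subunits of the 19S cap, which recognises ubiquitin-tagged proteins, 9 read higher and 8 lower with a median of 0.005, and none passed. Psmd14, a deubiquitinase, differed by 0.22 ± 0.10 (SE), Psmd6 by 0.11, Psmd11 by -0.11 and Psmd5, an assembly chaperone, by -0.25 ± 0.09 (SE).

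The 8 other activators, inhibitors and assembly factors had a median of 0.04, with 6 higher, 2 lower and none past adjustment. They included the inhibitor Psmf1 at 0.20 ± 0.13 (SE), the activator Psme4 at -0.08 ± 0.11 (SE), and the assembly factors Psmg3 at 0.12 ± 0.17 (SE) and Psmg4 at 0.06 ± 0.11 (SE). Of 6 measured loading and trimming factors 5 read lower, with a median of -0.062 and none past adjustment. The median was -0.12 without experiment 1 and -0.007 without experiment 3, so its size rests on single experiments. The chaperones Calr and Canx, which hold new heavy chains, differed by -0.09 ± 0.10 (SE) and -0.11 ± 0.09 (SE). The peptidases Tpp2 and Erap1 differed by -0.10 ± 0.11 (SE) and -0.03 ± 0.09 (SE).

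The list of class I heavy chains, which also holds genes such as Mr1 and Hfe that do not carry peptides, read close to its controls. Of 17 listed 9 had a probe set annotated to that gene alone, of which 6 were expressed. Such an annotation does not show that the probes miss the transcripts of related heavy chains. The median over all 9 was 0.017, with 6 higher, 3 lower and none past adjustment, and it was -0.008 with dim probe sets left out. H2-K1 read 12.84, 12.99 and 13.01 in controls and 12.71, 12.92 and 12.99 in irradiated cultures, a difference of -0.07 ± 0.09 (SE). Its arrays overlapped, and like B2m it is near the top of the scale. H2-M3, a heavy chain for bacterial peptides, differed by 0.28 ± 0.14 (SE), of which experiment 2 gave 0.65. Hfe, an iron regulator of the same fold, differed by 0.10 ± 0.12 (SE) and Mr1, which presents vitamin metabolites, by -0.03 ± 0.10 (SE).

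Upstream of the set, interferon receptors, their kinases and the factors that act on class I promoters had 21 of 23 measured, 15 higher, 6 lower and none past adjustment, with a median of 0.103 against 0.007 over all genes. The median was 0.02 without experiment 2 and 0.08 without experiment 1 or 3. Irf1, an interferon-induced transcription factor, read 8.31, 8.37 and 8.36 in controls and 8.52, 8.48 and 8.71 in irradiated cultures. The groups did not overlap and the difference was 0.22 ± 0.10 (SE; 95% interval -0.02 to 0.46). Jak2, a kinase of the interferon-gamma receptor, had differences of 0.25, 0.26 and 0.18 with a mean of 0.23 ± 0.09 (SE). For the receptor chain gene Ifnar1 they were 0.12, 0.48 and 0.11 with a mean of 0.24 ± 0.11 (SE). Nfya, a subunit of the factor that binds the Y box, went the other way, from 6.83, 7.13 and 7.33 in controls to 6.44, 6.74 and 7.02, a mean of -0.36 ± 0.09 (SE), or -0.07 as a mean over its probe sets. Its groups overlapped because the experiments started from different levels. The interferon genes Ifng and Ifnb1 themselves, named here outside the rule, were dim, at 2.45 and 4.07 in controls. They differed by 0.10 ± 0.12 (SE) and 0.25 ± 0.13 (SE), at levels too low to judge. The MHC class II list was mostly dim, with 1 of 6 measured genes expressed, a median of -0.025 and none past adjustment.

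**Figure D4:**
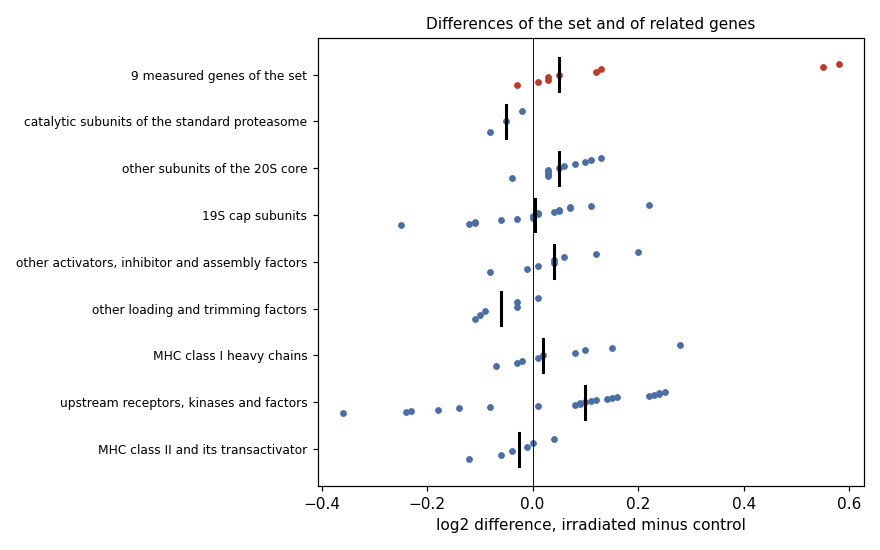
Log2 difference, irradiated minus control, of each measured gene in the set (red) and in the 8 lists of related genes (blue), 1 probe set per gene, with a black bar at each median. Psmb9 and Tap1 lie beyond every gene of the related lists, whose medians run from -0.062 to 0.103.

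Over the 6 arrays the expressed genes outside the set whose profile was most like the mean of the 9 genes were Tm7sf3 (Pearson r = 0.9926), Tet2 (r = 0.9914), Cxcl12 (r = 0.9906), Akap8 (r = 0.9876) and Zfp608 (r = 0.9825). They were the closest of 9091 genes ranked, by a measure over 6 points only. Within the set the 36 pairwise correlations over the 6 arrays ran from -0.875 to 0.791 with a median of 0.203. The arrays share experiments, so these values are descriptions. Against the mean of the other members, r was 0.718 for Tap1 and 0.704 for Psmb9 and between -0.415 and 0.433 for the other 7. Psmb9 and Tap1 correlated at r = 0.747, and each is part of the mean set against the other. Their differences were known when the list was made and enter these means, so nothing is read from these values or from the similar genes.

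The labelled cell type was checked by markers, and macrophage genes were as plainly present as stromal ones. Of 10 measured stromal markers 9 were expressed, with Col1a2 at 13.38 in controls, while Thy1 was dim at 4.11. Pdgfrb, a growth factor receptor of stromal cells, was the 1 marker of all lists whose groups did not overlap, from 10.71 in controls to 10.43 in irradiated cultures. Over all genes 5.4% lay wholly lower and 4.56% wholly higher, so nothing is read from this. All 16 macrophage markers were expressed, with a median of 12.24 in controls and Lyz2 at 14.21. All 6 measured fat cell markers were expressed, with Fabp4 at 14.32, and no measured dendritic cell (5), lymphoid (7) or endothelial (6) marker was. Macrophages are known to express immunoproteasome subunits, and fewer cells of a type and less RNA per cell cannot be told apart in these bulk samples. Of the macrophage markers 14 read lower and 2 higher in irradiated cells. Cd14, a receptor for bacterial lipopolysaccharide named outside the rule, had the widest difference, with -0.84, -0.17 and -1.18 in the experiments, a mean of -0.73 (95% interval -1.18 to -0.28). It was the 1 of 16 macrophage markers with an unadjusted limma p under 0.05, against 8.31% of all genes. The markers' mean level per array ran from 11.03 to 11.76 in controls and from 10.81 to 11.57 in irradiated cultures. The macrophage median difference was -0.195, 0.075 and -0.125 in experiments 1, 2 and 3, where Psmb9 differed by 0.54, 0.54 and 0.57 and Tap1 by 0.68, 0.48 and 0.59. The part of the cell mixture in the values of the 9 genes was not tested.

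Array medians lay between 4.75 and 4.80. In experiment 3 the spiked-in hybridisation controls gave a signal 0.521 higher with the irradiated sample than with its control, against 0.097 and -0.099 in the other experiments. Without experiment 3 the difference of Psmb9 was 0.54 and that of Tap1 was 0.58. The 3 prime minus 5 prime signal of control transcripts, a measure of RNA quality, differed by at most 0.025 within an experiment.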

How the data were processed

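The arrays were Affymetrix mouse arrays. The authors deposited log2 values for each probe set. The tools listed are RMA, affy and limma, per the submitters' processing notes. The sources used here do not give the background step, versions, genome build or detection calls. RNA of 200 ng was labelled per array, per the labels' protocols.

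The table has 45101 rows, of which 64 array controls were left out. By the platform annotation 34945 of the other 45037 probe sets carry 1 symbol, 932 several and 9160 none, and 34741 symbols were matched by identifier to the GRCm38.p6 gene table. A gene was represented by its probe set with the highest mean and called expressed where a group mean reached 6, as in 9302 of 18193 genes. The files hold no coordinates. Promoter sequences come from RefSeq (GRCm38.p6), with 250 bases before and 50 after each start, for 7 of the 9 measured genes.

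The comparison of groups used limma 3.58.1 under R 4.3.3 (lmFit, eBayes, two-sided, Benjamini-Hochberg over all probe sets at 0.05), with the experiment as a block, since the design text pairs each irradiated culture with its own control. Deviations from group means correlated at 0.787, 0.028 and 0.324 for the pairs of experiments 1, 2 and 3. Between unmatched arrays the highest value was 0.552, for the control of experiment 3 and the irradiated array of experiment 2. The pairing therefore comes from that text and not from the values. Residual and prior degrees of freedom were 2 and 4.52. Simulated arrays of 45037 probe sets had no experiment effect, and their variances were drawn from the fitted prior whatever the level, unlike real arrays. On these the fit recovered 75 of 100 2-fold and 99 of 100 4-fold changes, besides 8 false calls. Some 2-fold changes were thus missed, so changes of the size of Psmb9 could be missed too, though none that small were simulated.

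Named were all members, up to 4 expressed genes per related list by the size of the moderated statistic, every gene of a list of 3, the 5 most similar genes, and from marker lists the brightest gene and those whose groups do not overlap. Members and lists were chosen with earlier results of these data known. Alternatives dropped the block or made it random, left out each experiment or the dim probe sets, applied quantile normalization, median centring or array weights, used a robust prior with an intensity trend, or averaged a gene's probe sets. Figures were drawn with matplotlib 3.10.9.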

Additional observations from a re-analysis of the deposited data

Results flagged for a closer look

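The spiked-in hybridisation controls, which enter no comparison, had a mean signal of 11.47 on the irradiated array of experiment 3, above the 10.57 to 10.95 of the control arrays. Psmb9 differed by 0.54 and Tap1 by 0.58 without that experiment.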

How the results depend on the processing

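None of the 9 genes and no gene of the 8 related lists passed the adjusted threshold under any of the 11 alternatives run. At this number of arrays a change of 2-fold or less can be missed. Probe sets with an unadjusted limma p under 0.05 numbered 3631 of 45037, and 2168 without the replicate block. With dim probe sets left out they numbered 2260 of 16431, a larger share of fewer tested. They numbered 4824 with array weights and 3921 with a robust prior and an intensity trend. With 1 experiment left out the count lay between 1692 and 3748, 1692 being without experiment 1. The causes of these shifts were not tested. The median difference over the 9 genes, 0.05, was 0.115 without experiment 1, 0.00 without experiment 2 and 0.07 without experiment 3. Psmb9 stayed between 0.54 and 0.56 over the 11 alternatives, with a limma adjusted p from 0.209 to 0.931. Tap1 stayed between 0.54 and 0.64 under 10 of them and was 0.09 as a mean over its 4 probe sets, with an adjusted p from 0.238 to 0.998 over all 11. Psmb8, Psmb10, Tap2 and Tapbp had both signs among the alternatives, with values from -0.06 to 0.21. Without the replicate block Psmb9, Tap1, the stromal marker Pdgfrb and the macrophage marker Cd14 kept an unadjusted limma p under 0.05. Psmd5, Jak2, Nfya and the stromal marker Nt5e did not. As means over their probe sets, Tap1, Nfya and Nt5e did not reach it either. The differences of Psmb9 and Tap1 were known when the list was made, so nothing is read from their staying under 0.05 without the block.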
